A study of Mus musculus with 18 samples.

Results

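The mTOR complexes and the nutrient-sensing machinery that acts on them at the lysosome were followed as 40 mouse genes among 36047 genes with a listed transcript. They were picked by name as parts of this pathway, with earlier results of these data known. They cover 7 genes of the mTOR kinase complexes, 4 of the TSC complex with its target Rheb, 4 Rag GTPases, 5 subunits of Ragulator, 3 of GATOR1, 5 of GATOR2, 3 of the folliculin complex, 5 amino acid and stress sensors and 4 genes for mTORC1 substrates.

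The data were 18 RNA libraries in 6 groups of 3, made from a pair of murine lung tumour lines with the kinase gene Dstyk lowered or raised. LLC, a C57BL/6 line labelled lung adenocarcinoma, carried the TPLKO vector with the sh3 construct or the empty TPLKO vector, and both arms were given doxycycline. UN-SCC679, an A/J line labelled squamous carcinoma, carried the same pair of vectors, also with doxycycline in both arms. In a separate experiment UN-SCC679 carried pLENTI6 with wild-type DSTYK (OE_DSTYKwt, OE below) or empty pLENTI6, with no treatment given. The sources used here do not say whether a population was 1 clone or a pool, whether the 3 libraries of a group were separate cultures, or from which species the overexpressed DSTYK came. With 1 hairpin and 1 construct, an effect of Dstyk and another effect of the same vector cannot be told apart.

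mTOR is a kinase that works in a pair of complexes. mTORC1, built on raptor (Rptor), drives protein synthesis and holds back autophagy when growth factors and amino acids are at hand, and mTORC2, built on rictor (Rictor), acts on AKT. Growth factor signals reach mTORC1 through the TSC complex, which switches off the small GTPase Rheb. Amino acid signals reach it at the lysosome surface, where Ragulator anchors Rag GTPase heterodimers that recruit the complex. GATOR1 inactivates RagA and RagB, GATOR2 opposes GATOR1, and folliculin with its partners Fnip1 and Fnip2 acts on RagC and RagD. These proteins are regulated mainly through binding and phosphorylation, which RNA levels do not show.

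The promoters of the genes that ranked first by size of change in the comparisons below are shown first. RefSeq promoter windows on GRCm38.p6 were matched for 34 of the 40 genes, as 36 windows, with 2 each for Mapkap1 and Sesn1. The 250 bases before the RefSeq start are given for Rragd and for Sesn3. Rragd, whose product is the RagD GTPase, ranked first in both knockdowns, and Sesn3, a sestrin gene, ranked first with OE. The Sesn3 window lies inside the gene as annotated for the counts, whose span begins at base 14275067 of chromosome 9. Capitals mark GGGTG or its reverse complement CACCC in Rragd, and CCAAT or its reverse complement ATTGG in Sesn3; these letters were picked after the windows had been read.
Rragd, chr4:32982748-32982997, plus strand: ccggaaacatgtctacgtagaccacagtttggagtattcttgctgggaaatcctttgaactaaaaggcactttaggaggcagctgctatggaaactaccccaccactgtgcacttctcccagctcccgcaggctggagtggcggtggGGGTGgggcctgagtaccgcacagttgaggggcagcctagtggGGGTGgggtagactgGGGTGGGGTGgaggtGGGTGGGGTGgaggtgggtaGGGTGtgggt
Sesn3, chr9:14276051-14276300, plus strand: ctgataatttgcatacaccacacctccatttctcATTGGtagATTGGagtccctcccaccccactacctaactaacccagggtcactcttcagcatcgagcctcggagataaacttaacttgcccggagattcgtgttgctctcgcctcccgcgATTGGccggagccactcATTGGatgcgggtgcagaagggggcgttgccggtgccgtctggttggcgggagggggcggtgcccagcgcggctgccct

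The Rragd window holds GGGTG 7 times, a number reached by 0.0974% of 32851 promoter windows, and lacks the letters marked in Sesn3. The Sesn3 window holds CCAAT 4 times, which 0.84% of windows match or exceed. A second set shows the E-box CACGTG, which reads the same on both strands and is the core of the site bound by MiT/TFE factors, known regulators of lysosomal genes. It was found in 7 of the 36 windows (19.4%), each of another gene, against 7.15% of all windows. Neither Rragd nor Sesn3 was among the 7. Each E-box before the start is shown in capitals with 20 bases on either side; Rragb has 1 more, which spans the start and is not shown.
Rheb, chr5:24842432-24842477, minus strand: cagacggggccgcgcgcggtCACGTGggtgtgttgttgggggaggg
Tbc1d7, chr13:43171529-43171574, minus strand: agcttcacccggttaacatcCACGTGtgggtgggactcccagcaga
Rragb, chrX:153139811-153139947, plus strand: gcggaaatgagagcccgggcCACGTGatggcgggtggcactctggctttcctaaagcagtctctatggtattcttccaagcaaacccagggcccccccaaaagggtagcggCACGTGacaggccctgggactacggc
Rragc, chr4:123917301-123917346, plus strand: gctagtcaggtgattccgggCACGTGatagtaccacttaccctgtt
Lamtor1, chr7:101905749-101905794, plus strand: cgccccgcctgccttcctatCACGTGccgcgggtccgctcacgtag
Lamtor4, chr5:138255342-138255403, plus strand: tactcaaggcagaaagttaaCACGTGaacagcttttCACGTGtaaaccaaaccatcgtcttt
Fnip1, chr11:54438084-54438129, plus strand: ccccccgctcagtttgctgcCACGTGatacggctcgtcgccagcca

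These 7 genes comprise GTPases of the pathway (Rheb, Rragb, Rragc), the TSC subunit gene Tbc1d7, the Ragulator genes Lamtor1 and Lamtor4, and Fnip1. The longer letters TCACGTGA, which contain the E-box, were in none of the 36 windows and in 0.974% of all windows. TGATGNAA, the form read by ATF4 dimers, was in 1 window (Lamtor4), against 3.97% of all. Matches are letters in a window and do not show binding.

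Libraries held 40525385 to 46528071 estimated counts. Dstyk averaged 23.1 ± 0.79 CPM (counts scaled to the library total) in LLC with sh3 and 42.8 ± 2.07 CPM with empty TPLKO, 26.2 ± 0.869 and 36.9 ± 0.931 CPM in the same arms of UN-SCC679, and 37.8 ± 0.774 CPM with OE and 31.0 ± 1.39 CPM with empty pLENTI6 (SD, n = 3 each). The first empty pLENTI6 library stood apart from the other two of its group, with mean chi-square values per gene of 11.23 and 12.74, where all other pairs lay between 1.9 and 4.82. Markers of the labelled tumour types were present in part. In LLC, Sftpc and Scgb1a1 were at 0, the 6 squamous markers summed to at most 0.102 TPM (a level per transcript length, scaled to the library), and of 5 epithelial markers only Krt18 averaged above 1 TPM, at 41 TPM with sh3 and 40.4 TPM with empty TPLKO. In UN-SCC679, Epcam, Cdh1 and Krt19 averaged under 1 TPM, but Krt8 averaged 247 to 519 TPM and Krt18 99.6 to 428 TPM over its 4 groups. The lung factor Nkx2-1 averaged 28.1 to 42.1 TPM. The other lung markers listed with it, Sftpc, Sftpb, Napsa and Scgb1a1, averaged at most 0.571 TPM in any group of this line. The epithelial markers summed to 338 to 355 TPM there with sh3, 540 to 565 TPM with empty TPLKO, 763 to 802 TPM with OE and 931 to 967 TPM with empty pLENTI6. The squamous markers summed to 50 to 53.3 TPM with sh3, 32.1 to 37.6 TPM with empty TPLKO, 121 to 128 TPM with OE and 116 to 120 TPM with empty pLENTI6. Most of these sums lay on Sox2 (28.2, 29.4, 61.1 and 69.3 TPM in that order), Krt6a (1.02, 0.339, 59.3 and 47.5 TPM) and Krt14 (16.3, 3.41, 1.22 and 0.779 TPM). Trp63 averaged 0.907 to 5.98 TPM and Krt5 at most 0.0327 TPM, and Dsg3 was at 0 in 3 of these 4 groups. The 6 fibroblast markers summed to 3120 to 3170 TPM with sh3 and 3880 to 3990 TPM with empty TPLKO in that line, against 1460 to 1480 TPM with OE and 1360 to 1460 TPM with empty pLENTI6. Col1a2 made up most of these sums (2730 TPM with sh3 and 3710 TPM with empty TPLKO), while Col1a1 (310 and 151 TPM) and Pdgfra (15.3 and 1.93 TPM) differed the other way between these arms. The part of these differences in the results was not tested, and in cell populations fewer cells of a type and less RNA per cell cannot be told apart.

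Levels per length are described first. Eif4ebp1, whose product 4E-BP1 holds the cap-binding protein eIF4E until mTORC1 phosphorylates it, had the highest mean of the 40 genes in every group, between 303 TPM in UN-SCC679 with sh3 and 516 TPM in UN-SCC679 with empty TPLKO. Also high were Sec13, a GATOR2 subunit that also serves in vesicle coats and nuclear pores (120 to 216 TPM), Lamtor2 (65 to 175 TPM) and Rheb (116 to 146 TPM). Mtor itself averaged 16.1 to 18.9 TPM and Rictor 10.5 to 16.4 TPM, and Slc38a9, the arginine sensor of the lysosomal membrane, 4.9 to 6.5 TPM. Within these spans many neighbours do not differ beyond their SDs: Mtor was 18.1 ± 2.23 TPM in LLC with sh3 and 16.8 ± 2.42 TPM with empty TPLKO.

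**Figure D1:**
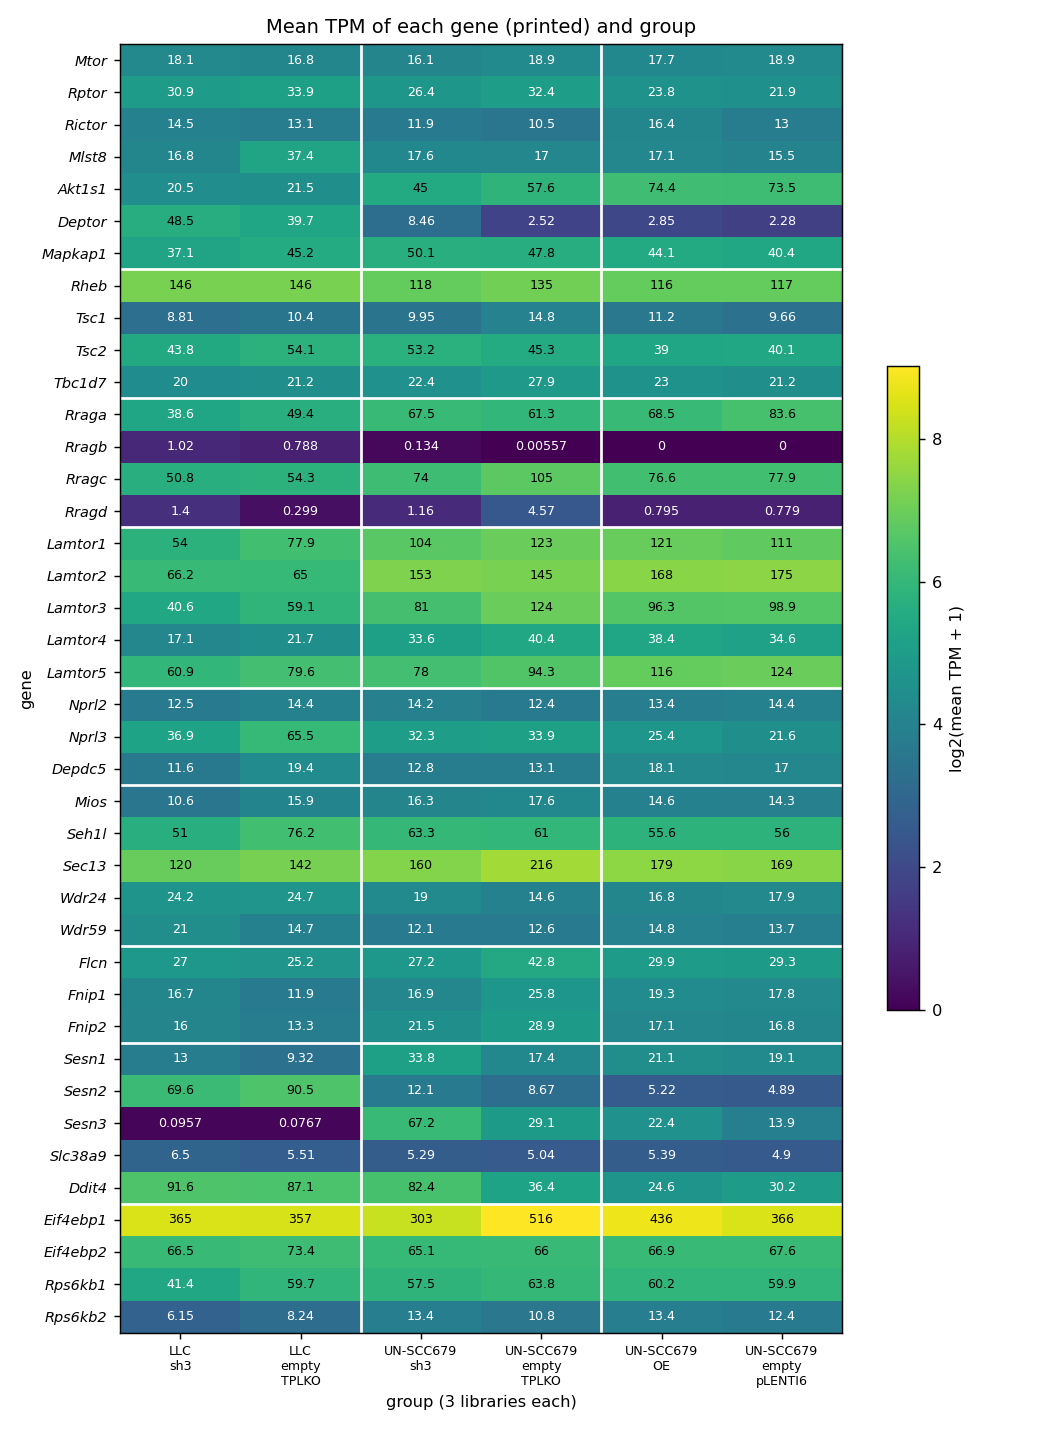
Mean TPM over 3 libraries of each of the 40 genes (rows, grouped by role) in the 6 groups (columns), as numbers and as colour on a log2(TPM + 1) scale. Sesn3 is near 0 in both LLC groups and Rragb near 0 in the 4 UN-SCC679 groups, while Eif4ebp1 is high throughout.

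A few genes set the lines apart. The sestrin gene Sesn3 had 9, 4 and 4 estimated counts in the LLC libraries with empty TPLKO, against 6163, 6602 and 5998 in those of UN-SCC679. Rragb, one of the interchangeable pair RagA and RagB, had 23, 39 and 33 counts in the same LLC libraries and 0, 1 and 0 in UN-SCC679. Both genes were thus near silent in one line, so that each was tested in the other line only. Sesn2, a leucine-binding sestrin in human cells, averaged 186 ± 4.65 CPM in LLC and 17.6 ± 0.372 CPM in UN-SCC679, and Deptor, an inhibitor that binds mTOR, 202 ± 1.6 and 11.5 ± 0.818 CPM. Rragd lay the other way, at 0.535 ± 0.202 CPM in LLC and 11.7 ± 0.63 CPM in UN-SCC679 (log2 difference -4.46, SE 0.18; adjusted p = 3.17e-10). Of the 40 genes 37 differed between the lines with empty vector, 16 higher and 21 lower in LLC, while 82.9% of all genes differed (40.9% higher and 42% lower).

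In LLC, sh3 went with more Rragd RNA and with less RNA for many other genes of the pathway. Among them were Mlst8, the GATOR1 genes Nprl3 and Depdc5, and 4 of 5 Ragulator genes. Of 39 genes tested, 10 rose and 22 fell; Sesn3 did not pass the filter on low counts. Over all genes tested, 72.6% passed the same test, 36.2% higher and 36.4% lower, so a change as such does not set these genes apart. With limma on log2(TPM + 1), 6 rose. The median absolute log2 change was 0.31 against 0.35 for all genes, the signed median was -0.14 against 0.010, and 2 of the 39 changed at least 2-fold, against 12.2% of all genes. The libraries of the arms did not overlap for 34 of 39 genes, against 76% of all genes.

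Rragd showed the largest rise in LLC. The gene (ENSMUSG00000028278.14) spans bases 32983037 to 33022180 of chromosome 4 (GRCm38, plus strand). It had 3.97, 3.92 and 2.81 CPM in the sh3 libraries, against 0.329, 0.739 and 0.566 CPM in the empty TPLKO libraries. All sh3 libraries lay above all empty ones, on counts of 181, 183 and 125 against 15, 30 and 24, and the level with sh3, 1.4 TPM, was low beside those of Rraga and Rragc (38.6 and 50.8 TPM). The change was 6.58-fold (log2 2.72, SE 0.26; adjusted p = 7.5e-07). Rraga, for RagA, fell (log2 -0.34, SE 0.037), Rragc fell slightly (log2 -0.09, SE 0.025), and Rragb was at 1.05 ± 0.0892 CPM with sh3 and 0.748 ± 0.23 CPM with empty TPLKO (adjusted p = 0.148).

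Among the kinase complexes, Mlst8 fell most. Its product is a subunit that both complexes share. It had 28.1, 25.7 and 25.2 CPM with sh3, against 56.4, 57.2 and 55.8 CPM with empty TPLKO. Each sh3 library was at about the same low level, and the difference was 2.15-fold (log2 -1.10, SE 0.040; adjusted p = 6.5e-11). The defining subunits moved little. Mtor had 66, 63.5 and 61.3 CPM with sh3, against 68.5, 72.7 and 69.1 CPM with empty TPLKO. Rptor had 112, 113 and 116 CPM, against 121, 122 and 122 CPM. Rictor had 78.7, 77.6 and 75.8 CPM, against 70.4, 71.7 and 72.4 CPM. The arms did not overlap for any of these 3 genes, and Mtor fell by 0.14 (SE 0.034), Rptor fell by 0.10 (SE 0.021) and Rictor rose by 0.11 (SE 0.027) on the log2 scale, with adjusted p of 0.0026, 0.000786 and 0.00183. With limma on log2(TPM + 1), Mtor was 0.10 higher (adjusted p = 0.494) and Rictor 0.13 higher (adjusted p = 0.0592), and neither was called. Rptor was at 0.00 with the median of chromosome 11, which was -0.10, removed. Mapkap1, the mTORC2 subunit SIN1, fell (log2 -0.33, SE 0.033) and Deptor rose (0.31, SE 0.016), while Akt1s1, the raptor-bound inhibitor PRAS40, was not called.

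Of the TSC genes, Tsc2 and Tsc1 fell with sh3 in LLC. Tsc2, the catalytic subunit that acts on Rheb, fell by 0.39 (SE 0.0215) and its stabilising partner Tsc1 by 0.30 (SE 0.040) on the log2 scale. The call of Tsc1 was lost with limma on log2(TPM + 1) (log2 -0.22, adjusted p = 0.0577). Exons of Tsc2 share 7.2% of their bases with Pkd1 on the opposite strand, which was not called (adjusted p = 0.923). Tbc1d7, the third subunit, was not called (log2 -0.10, adjusted p = 0.132). Rheb rose by 0.12 (SE 0.029) on the gene counts, a call that was lost with transcript lengths taken into account (log2 0.01, adjusted p = 0.819).

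GATOR1 and most of GATOR2 also fell. Nprl3, a GATOR1 subunit, had 35.5, 37.1 and 32.7 CPM with sh3, against 62, 59.1 and 58.3 CPM with empty TPLKO. No sh3 library reached an empty one, and the fall was 1.70-fold (log2 -0.77, SE 0.0445; adjusted p = 5.05e-09). Its exons share 17.7% of their bases with Mpg on the opposite strand, whose own log2 change was -0.44 (adjusted p = 2.92e-07), and the strand setting of the counting is not given in the sources used here. Depdc5, the subunit of GATOR1 that contacts the Rag GTPases, fell by 0.50 (SE 0.038). Nprl2 fell by 0.20 (SE 0.074), a call lost without empty TPLKO replicate 1 (adjusted p = 0.128), sh3 replicate 2 (0.0942) or sh3 replicate 3 (0.0712). That call was also lost with library size scaling (adjusted p = 0.0544), limma on log2(TPM + 1) (0.0552) and effective lengths (0.0727). With chromosome medians removed Nprl2 was at -0.13 (adjusted p = 0.125). Mios had 22.9, 23.8 and 24.2 CPM with sh3, against 37.7, 33.4 and 35 CPM with empty TPLKO. Seh1l, which also belongs to the nuclear pore, had 108, 106 and 107 CPM, against 156, 157 and 156 CPM. For both GATOR2 genes the arms were clearly separate, with log2 changes of -0.58 (SE 0.047) for Mios and -0.55 (SE 0.019) for Seh1l. Sec13 fell too (log2 -0.23, SE 0.028), Wdr24 was not called, and Wdr59 went the other way, with 56.6, 56.5 and 56.9 CPM, against 39.9, 41.5 and 40 CPM (log2 0.49, SE 0.0305; adjusted p = 1.09e-08).

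Ragulator fell in 4 of its 5 genes. Lamtor3 had 30.1, 28.7 and 30.8 CPM with sh3, against 42.9, 44.8 and 43.8 CPM with empty TPLKO. Lamtor1, which ties the complex to the lysosomal membrane through its lipid anchor, had 35.4, 35.3 and 36.3 CPM, against 51.4, 50.7 and 50.5 CPM. In both genes the libraries of an arm lay close together, far from the other arm. The log2 changes were -0.55 for Lamtor3 (SE 0.037, adjusted p = 1.86e-08) and -0.51 for Lamtor1 (SE 0.031, adjusted p = 7.29e-09). Lamtor5 and Lamtor4 fell by 0.37 and 0.32, and Lamtor2 was at 22.6 ± 0.205 CPM with sh3 and 22.4 ± 0.584 CPM with empty TPLKO. Lamtor3 shares a near-identical stretch (99.467% identity over 375 bases) with Gm5900, which held counts equal to 5.9% of those of Lamtor3. Exons of Lamtor1 share 18.7% of their bases with Lrrc51 on the opposite strand, which averaged 77.0 counts over all libraries, against 2700.1 for Lamtor1.

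Folliculin partners and substrates moved in different ways in LLC. Fnip1 rose by 0.50 (SE 0.031; adjusted p = 9.8e-09) and Fnip2 by 0.30 (SE 0.036; adjusted p = 6.51e-06). Flcn, for folliculin itself, was at 46.2 ± 2.22 CPM with sh3 and 42.8 ± 2.54 CPM with empty TPLKO and was not called (adjusted p = 0.052). It was called higher with library size scaling, with either other filter setting and with chromosome medians removed. Leaving out empty TPLKO replicate 3 or sh3 replicate 3 also gave that call. Rps6kb1, the gene of the mTORC1 substrate S6K1, had 83.9, 83.9 and 80.1 CPM with sh3, against 131, 131 and 126 CPM with empty TPLKO. The arms stood well apart, with a 1.56-fold fall (log2 -0.64, SE 0.026; adjusted p = 1.63e-10). Rps6kb2 and Eif4ebp2 fell by 0.25 and 0.26. Of the sensors, Sesn1 rose by 0.49 (SE 0.057) and Sesn2 fell by 0.36 (SE 0.0215). Ddit4, whose product REDD1 curbs mTORC1 under stress through the TSC complex, and Eif4ebp1 were called higher by 0.09 and 0.07, but both calls were lost without empty TPLKO replicate 2 (adjusted p = 0.112 and 0.12) or sh3 replicate 2 (0.106 and 0.0783). That of Ddit4 was also lost without empty TPLKO replicate 1 (0.0534) or sh3 replicate 3 (0.107), and that of Rps6kb2 without sh3 replicate 2 (0.0521).

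**Figure D2:**
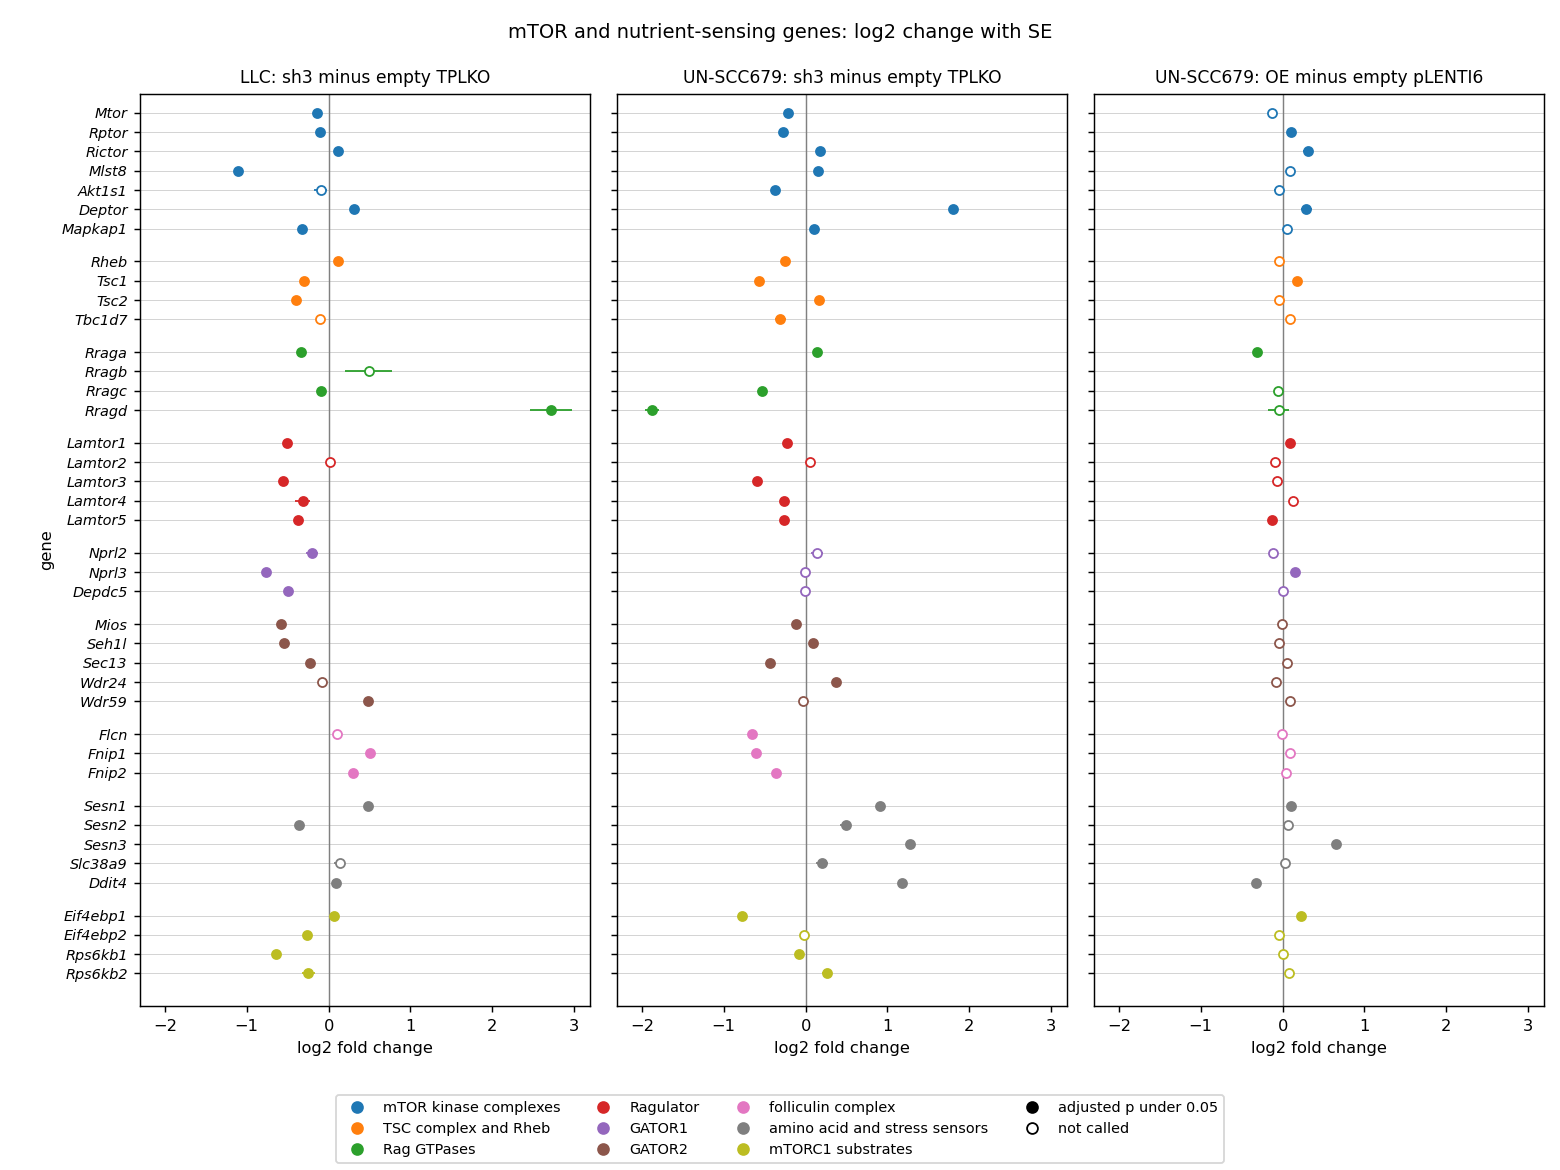
Log2 fold change with its SE (horizontal bars, often within the point) of each gene in the 3 comparisons of an altered arm with its empty vector; filled points passed an adjusted p of 0.05. Rragd lies at 2.72 in LLC and -1.87 in UN-SCC679, all 5 sensors lie right of 0 in the UN-SCC679 knockdown, and changes with OE stay between -0.33 and 0.65.

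In UN-SCC679, sh3 went with more RNA of the sensor genes Sesn3, Ddit4, Sesn1 and Sesn2 and with more Deptor. The sh3 libraries held less RNA of the folliculin complex, Rragd, Rragc and Eif4ebp1. Of 39 genes tested, 14 rose and 19 fell, where 63.8% of all genes tested passed (31.8% higher and 32% lower). The median log2 change was -0.04 against 0.011 for all genes. At least 2-fold changes were called for 4 of the 39, against 10.3% of all genes, and the arms did not overlap for 34, against 68.2% of all genes. Rragb did not pass the filter on low counts. For genes of chromosome 17 the median log2 change was 0.25, and for those of chromosome 19 it was 0.29.

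All 5 sensor genes were called higher. Sesn3 (ENSMUSG00000032009.8, chromosome 9, 14275067 to 14333101, plus strand) had 357, 364 and 361 CPM with sh3, against 149, 146 and 150 CPM with empty TPLKO. Ddit4 had 87.2, 85.3 and 80.3 CPM, against 39.1, 36.6 and 35.6 CPM. Sesn1 had 59.5, 56.7 and 55.8 CPM, against 29.7, 30.3 and 31.4 CPM. In all 3 genes every sh3 library was far above every empty one. Their changes were 2.43-fold for Sesn3 (log2 1.28, SE 0.020; adjusted p = 5.82e-13), 2.27-fold for Ddit4 (1.18, SE 0.042; 4.23e-10) and 1.88-fold for Sesn1 (0.91, SE 0.037; 1.51e-09). Sesn2, at a lower level, rose as well, with 26.4, 26.3 and 22.4 CPM with sh3 and 18.2, 18 and 17.4 CPM with empty TPLKO (log2 0.49, SE 0.065; adjusted p = 3.83e-05). Slc38a9 rose by 0.20 (SE 0.071, adjusted p = 0.0276), a call lost without empty TPLKO replicate 1 (adjusted p = 0.09), empty TPLKO replicate 3 (0.0668) or sh3 replicate 3 (0.114). The call was also lost with effective lengths (log2 0.08, adjusted p = 0.654), limma on log2(TPM + 1) (0.07, 0.696) and DESeq2 (0.20, 0.0551).

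Deptor and Rragd moved furthest. Deptor had 41.6, 40.9 and 39.4 CPM with sh3, against 10.7, 12.2 and 11.9 CPM with empty TPLKO. Rragd had 3.2, 3.33 and 3.14 CPM, against 12.2, 11.1 and 12.2 CPM. Neither gene showed any overlap between arms. Deptor was 3.5-fold higher (log2 1.81, SE 0.054; adjusted p = 1.01e-10) and Rragd 3.67-fold lower (log2 -1.87, SE 0.084; adjusted p = 3.26e-09). Rragc, whose product is the partner that RagD can replace, fell by 0.53 (SE 0.029; adjusted p = 1.75e-08), and Rraga rose by 0.15 (SE 0.035).

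The folliculin complex fell as a whole. Flcn had 49.1, 46.1 and 44.2 CPM with sh3, against 75, 71.2 and 72.4 CPM with empty TPLKO. Fnip1 had 60.5, 64.9 and 64.6 CPM, against 96.9, 99.8 and 91.9 CPM. Each sh3 library lay well below each empty one. The log2 changes were -0.65 for Flcn (SE 0.039, adjusted p = 4.35e-08), -0.60 for Fnip1 (SE 0.038, adjusted p = 5.6e-08) and -0.37 for Fnip2 (SE 0.028, adjusted p = 3.27e-07). Ragulator again fell in 4 of 5 genes, with Lamtor3 at -0.59 (SE 0.035) and Lamtor1, Lamtor4 and Lamtor5 between -0.23 and -0.27; Lamtor2 was not called (adjusted p = 0.115).

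Kinase complex genes shifted modestly in UN-SCC679 apart from Deptor. Mtor had 73.1, 69.6 and 73.5 CPM with sh3, against 80.7, 85 and 84.3 CPM with empty TPLKO. Rptor had 91.3, 93.8 and 92 CPM, against 108, 114 and 113 CPM. Rictor had 62.3, 64.4 and 66.8 CPM, against 59.3, 56.2 and 55.5 CPM. As in LLC on the gene counts, Mtor and Rptor were lower and Rictor was higher in all sh3 libraries. The calls in LLC were lost under some alternatives, as given above. In UN-SCC679 the log2 changes were -0.21 (SE 0.032), -0.27 (SE 0.027) and 0.18 (SE 0.036), with adjusted p of 0.000109, 3.85e-06 and 0.00104. Akt1s1 fell by 0.38 (SE 0.043) and Mapkap1 rose by 0.10, while Mlst8 was called 0.16 higher.

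Mlst8, Tsc2 and Wdr24 lie on chromosome 17 and Rps6kb2 on chromosome 19, where the typical gene was higher. Tsc2 and Rps6kb2 were called 0.16 and 0.26 higher and Wdr24 0.38 higher. With the median of each chromosome removed, Tsc2 was lower by -0.09 (adjusted p = 0.0428), and Mlst8 (-0.10, adjusted p = 0.165), Rps6kb2 (-0.02, 0.76) and Wdr24 (0.12, 0.0745) were no longer called. Pkd1, which shares exonic bases with Tsc2 on the opposite strand, rose by 0.27 (SE 0.0227; adjusted p = 8.3e-07). Mlst8 was also not called without empty TPLKO replicate 1, sh3 replicate 1 or sh3 replicate 2 (adjusted p = 0.129, 0.123 and 0.0514). Tsc1 fell by 0.57 (SE 0.039), Tbc1d7 by 0.31 (SE 0.071) and Rheb by 0.25 (SE 0.031). The 3 GATOR1 genes were not called, with adjusted p of 0.127 to 0.913 and log2 changes from -0.01 to 0.14. In GATOR2, Sec13 fell by 0.43 (SE 0.026) and Mios by 0.11 (SE 0.032), Seh1l rose by 0.09, a call that did not hold without empty TPLKO replicate 2 or 3 (adjusted p = 0.115 each) or sh3 replicate 3 (0.106), and Wdr59 was not called.

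Eif4ebp1 had the largest change among the substrates. It had 155, 155 and 150 CPM with sh3, against 268, 257 and 263 CPM with empty TPLKO. The arms were far apart, and the fall was 1.72-fold (log2 -0.78, SE 0.023; adjusted p = 1.1e-10); chromosome 8, on which it lies, had a median of -0.19. Eif4ebp2 was at 226 ± 2.56 CPM with sh3 and 228 ± 3.28 CPM with empty TPLKO (SD, n = 3) and was not called. Rps6kb1 fell by 0.08 (SE 0.024), but was at 0.00 with the median of chromosome 11 removed (adjusted p = 0.885).

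With OE the same genes changed little. Sesn3, Rictor, Deptor and Eif4ebp1 were higher, and Ddit4 and Rraga lower. Of 39 genes tested 9 rose and 3 fell, where 29.7% of all genes passed (14.6% higher and 15.2% lower), and the median log2 change was 0.03 against 0.003 for all genes. The largest change was 1.57-fold, while 2.54% of all genes changed at least 2-fold. The arms did not overlap for 21 of 39, against 46% of all genes. With DESeq2, 5 of them were called higher; with edgeR, 5 were without OE replicate 2 and 4 without OE replicate 3.

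Sesn3 changed most with OE. It had 114, 114 and 112 CPM with OE, against 67.9, 74.7 and 74.5 CPM with empty pLENTI6. The OE libraries lay close together and above every empty library, a 1.57-fold difference (log2 0.65, SE 0.038; adjusted p = 2.53e-06). Ddit4 had 23.4, 24.3 and 24 CPM, against 31.8, 29.2 and 29.1 CPM. Rraga had 62, 60.5 and 61.3 CPM, against 79.7, 74.1 and 75.1 CPM. Both were lower in each OE library, by -0.33 for Ddit4 (SE 0.045, adjusted p = 0.000615) and -0.32 for Rraga (SE 0.034, adjusted p = 0.000114).

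Rictor had 86.5, 86.2 and 83.6 CPM with OE, against 61, 72.3 and 73.3 CPM with empty pLENTI6. The low first empty library is the one that stood apart as a whole. Rictor rose by 0.31 (SE 0.060; adjusted p = 0.00406). Mtor had 72.1, 75.5 and 74.5 CPM, against 75.1, 82.6 and 85 CPM. Its arms overlapped and it was not called (log2 -0.13, SE 0.045; adjusted p = 0.0572), but without that empty library it was called lower (log2 -0.18, adjusted p = 0.000285). With all libraries kept, Mtor was also called lower with no filter on low counts, with a replicate block and with effective lengths. Rptor had 79, 81.8 and 83.4 CPM, against 75.5, 74.6 and 77.1 CPM (log2 0.10, SE 0.030; adjusted p = 0.0271). The arms of Rptor did not overlap, yet the call was lost without empty pLENTI6 replicate 2, OE replicate 2 or OE replicate 3 (adjusted p = 0.0957, 0.0899 and 0.101).

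The remaining named changes with OE were small rises. Eif4ebp1 had 254, 263 and 256 CPM with OE, against 229, 217 and 217 CPM with empty pLENTI6 (log2 0.22, SE 0.030; adjusted p = 0.000545). Deptor had 14.3, 13.6 and 13.4 CPM, against 10.1, 11.9 and 11.7 CPM (log2 0.29, SE 0.067; adjusted p = 0.00986). In both genes all OE libraries were above all empty ones; the call of Deptor was lost without OE replicate 1 (adjusted p = 0.0512). Tsc1 had 45.2, 46.3 and 48.2 CPM, against 39.1, 43.2 and 41.7 CPM (log2 0.17, SE 0.042; adjusted p = 0.0125). Nprl3 had 22.9, 22.9 and 24.3 CPM, against 20.7, 21.2 and 21.1 CPM (log2 0.15, SE 0.043; adjusted p = 0.0246). Neither overlapped between arms, but Tsc1 was not called without OE replicate 3 (adjusted p = 0.0636), nor Nprl3 without empty pLENTI6 replicate 3, OE replicate 2 or OE replicate 3 (0.0509, 0.0502 and 0.0965). Lamtor1, Lamtor5 and Sesn1 were called at log2 changes of 0.09, -0.13 and 0.11, and each lost its call when any of several single libraries was left out, with adjusted p up to 0.124, 0.185 and 0.0901. The 5 GATOR2 genes had adjusted p of 0.117 or more and the 3 folliculin genes 0.241 or more, and Rragd was at 2.1 ± 0.227 CPM with OE and 2.17 ± 0.143 CPM with empty pLENTI6.

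**Figure D3:**
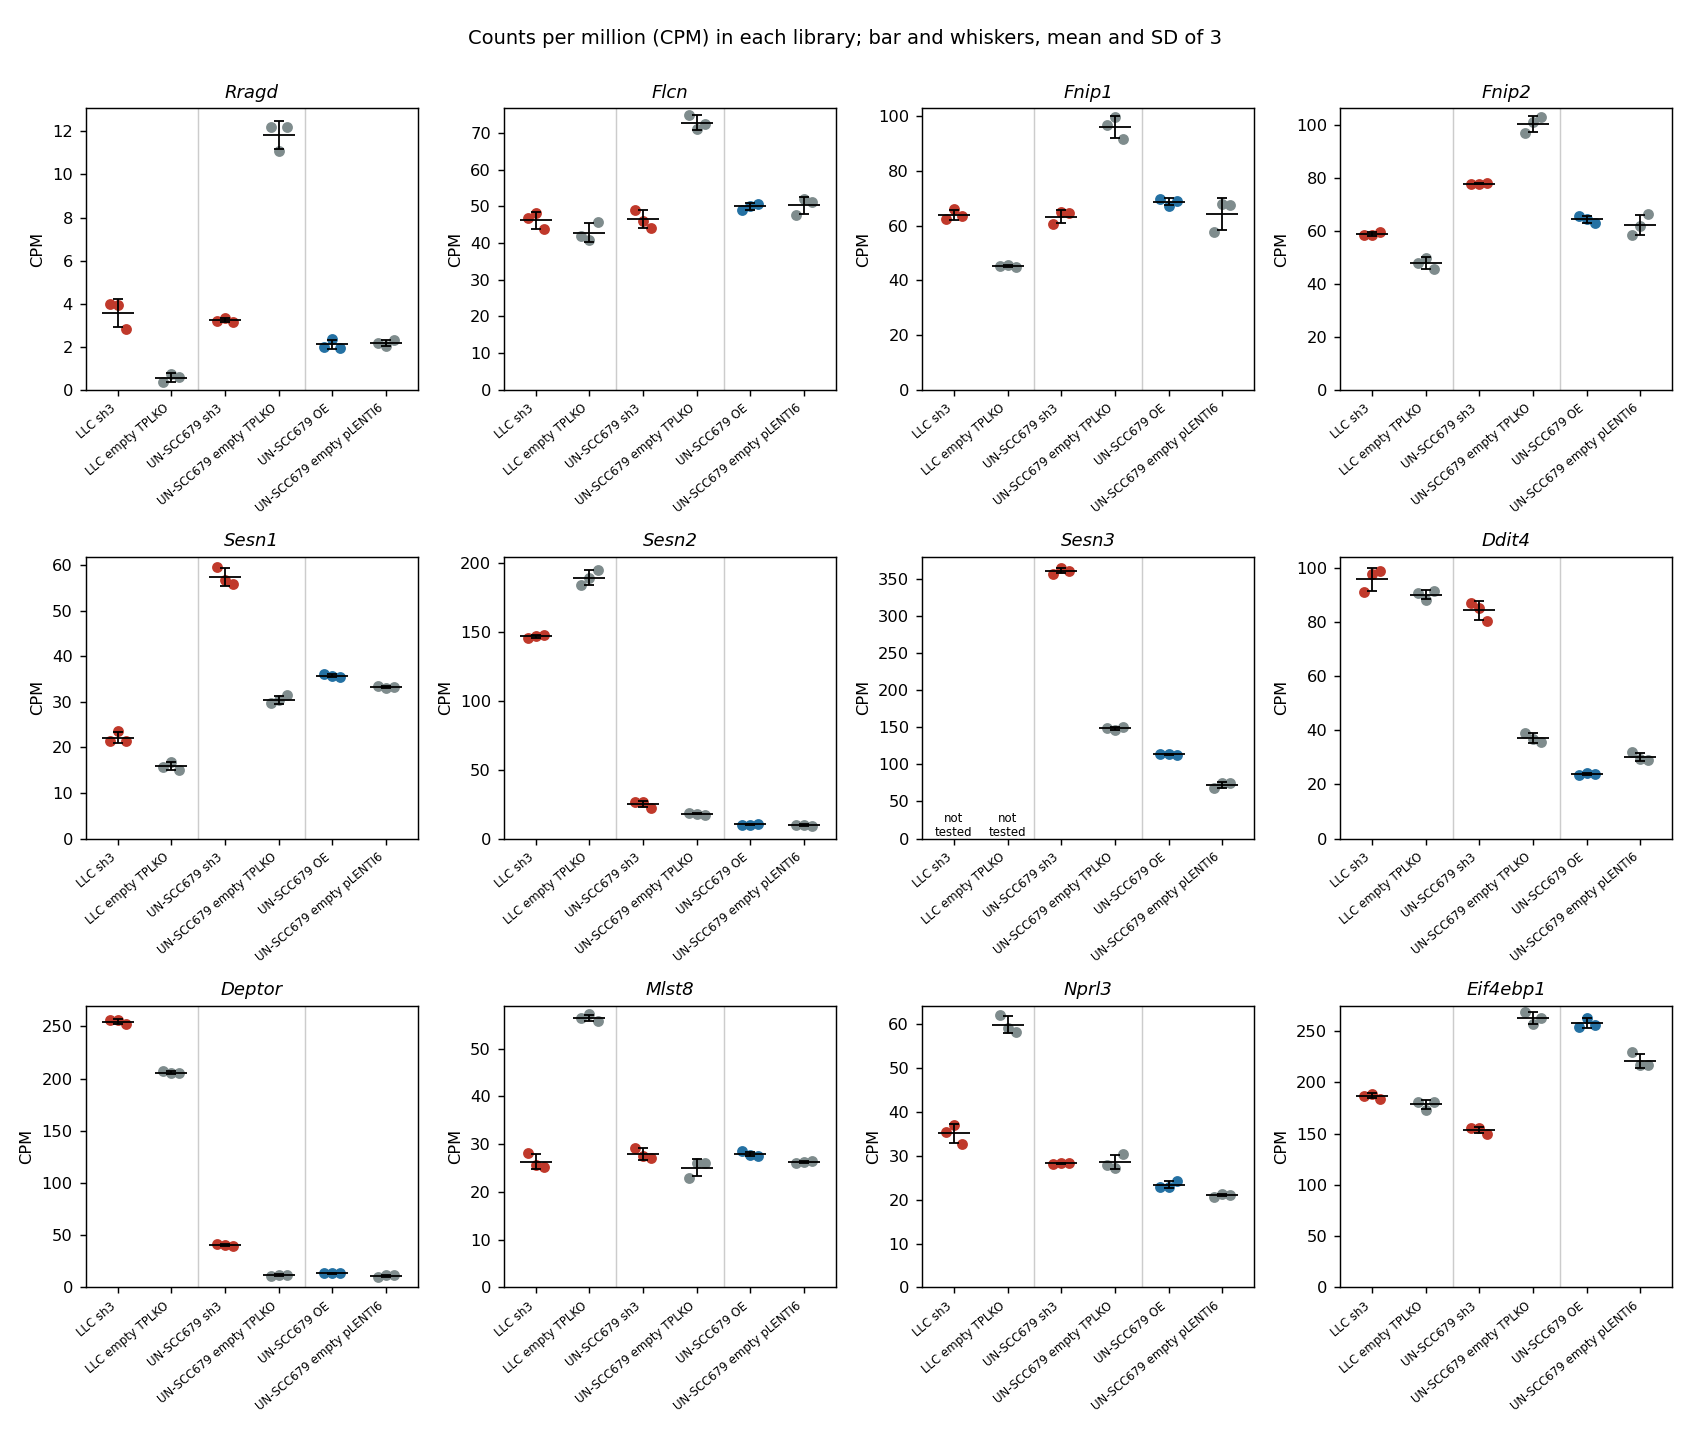
CPM of 12 genes in each library (points; bar and whiskers, mean and SD of 3), by group, with the altered arm left of its empty vector and CPM scaled within each experiment. Rragd is higher with sh3 in LLC and lower with sh3 in UN-SCC679, and Ddit4 is higher with sh3 and lower with OE in UN-SCC679.

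The knockdown effects of the lines share no library, so they can be set against each other. Among 38 genes tested in both lines, 12 were called in opposite directions (31.6%) and 15 in the same direction (39.5%), where 20.8% and 32.3% of all genes tested in both were. The opposite ones were Rragd, Fnip1, Fnip2, Rheb, Eif4ebp1, Sesn2, Mlst8, Mapkap1, Tsc2, Rraga, Seh1l and Rps6kb2, of which Mlst8, Mapkap1 and Rps6kb2 were not called in UN-SCC679, and Tsc2 was called lower there, once chromosome medians were removed. With effective lengths, and likewise with limma on log2(TPM + 1), 7 genes were called in opposite directions: Tsc2, Rraga, Rragd, Fnip1, Fnip2, Sesn2 and Rps6kb2. The calls of Eif4ebp1 and Rps6kb2 in LLC and of Mlst8 and Seh1l in UN-SCC679 were also lost without single libraries, as given above. Called in the same direction were 13 genes with effective lengths and 9 with limma. The test of the difference itself, as an interaction over 12 libraries, called 31 of 40 genes (12 higher and 19 lower in LLC), against 59.9% of all genes (28.1% higher and 31.9% lower). Rragd had the largest difference (log2 4.59, SE 0.25; adjusted p = 1.48e-10). All 3 folliculin genes were higher in LLC in this test, with differences of 1.10 for Fnip1 (SE 0.050, adjusted p = 1.59e-11), 0.75 for Flcn (SE 0.067, adjusted p = 6.08e-08) and 0.66 for Fnip2 (SE 0.046, adjusted p = 3.08e-09).

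In the other direction, Deptor (-1.50, SE 0.048), Mlst8 (-1.26, SE 0.075), Ddit4 (-1.10, SE 0.055) and Sesn2 (-0.86, SE 0.064) were lower in LLC than in UN-SCC679 in this difference of changes, with adjusted p of at most 6.95e-09. The GATOR1 genes differed too, with Nprl3 at -0.77 (SE 0.069, adjusted p = 6.38e-08), Depdc5 at -0.49 (SE 0.056, adjusted p = 9.31e-07) and Nprl2 at -0.34 (SE 0.11, adjusted p = 0.0127); that of Nprl2 was lost without LLC empty TPLKO replicate 1 (adjusted p = 0.0818) or UN-SCC679 empty TPLKO replicate 1 (0.0738). For 4 of 5 Ragulator genes no difference was called: Lamtor2 to Lamtor5 had differences of -0.11 to 0.04 (SE 0.046 to 0.10), and Lamtor1 was at -0.29 (SE 0.052, adjusted p = 0.000142). Mtor and Rictor were not called either, at 0.07 (SE 0.050) and -0.07 (SE 0.045).

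**Figure D4:**
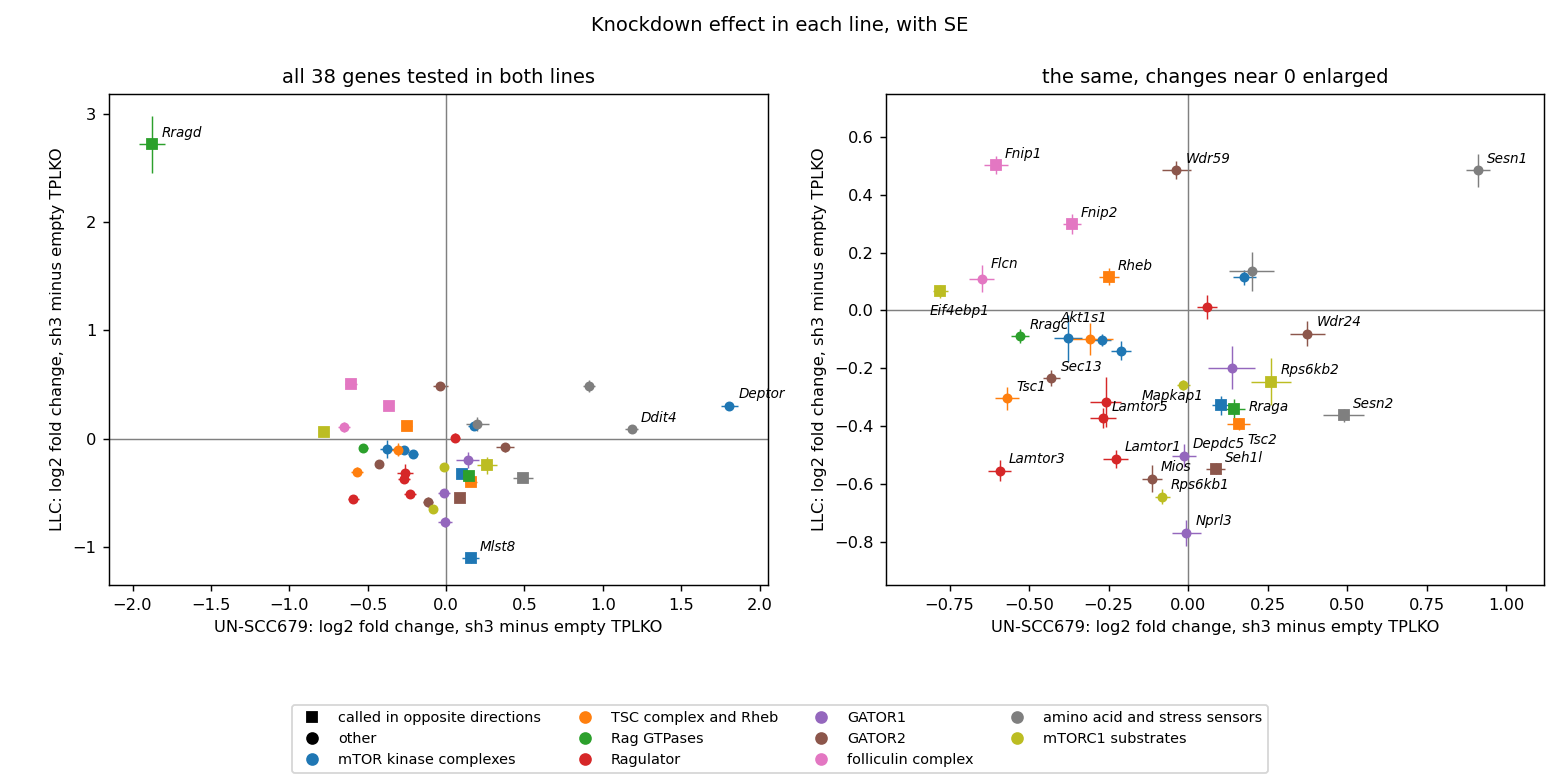
Log2 change with sh3 in LLC (vertical axis) against that in UN-SCC679 (horizontal axis) with SE bars, for the 38 genes tested in both lines; squares were called in opposite directions, and the right panel enlarges the centre. Rragd, Fnip1 and Fnip2 lie in the upper left of the plot, and the Ragulator genes other than Lamtor2 in the lower left.

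The 2 UN-SCC679 experiments also share no library. Of 39 genes tested in both, 6 were called in opposite directions with OE and with sh3 (15.4%, against 9.25% of all genes) and 5 in the same direction (12.8%, against 14.4%). These counts were 3 and 3 without OE replicate 3, 5 and 2 without OE replicate 1, 4 and 3 without empty pLENTI6 replicate 2, 4 and 3 with DESeq2, and 5 and 3 with limma. Opposite were Ddit4, Eif4ebp1, Rraga, Tsc1, Rptor and Lamtor1, and the same direction was seen for Sesn3, Deptor, Rictor, Sesn1 and Lamtor5. In the interaction test, the sh3 effect exceeded the OE effect by 1.51 for Ddit4 (SE 0.064, adjusted p = 1.17e-10) and differed from it by -0.999 for Eif4ebp1 (SE 0.038, adjusted p = 3.79e-11) on the log2 scale. Over all 39 genes the interaction called 12 higher and 17 lower, against 51.9% of all genes (26.1% higher and 25.8% lower). Vector and doxycycline differ between the experiments along with the altered gene, so their parts cannot be told apart.

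The empty vectors alone differed for the same genes. With empty pLENTI6 against empty TPLKO in UN-SCC679, 31 of 39 genes were called, 12 higher and 19 lower, against 68.7% of all genes (35.4% higher and 33.3% lower). With effective lengths 7 were higher, and Rheb, called 0.32 higher on gene counts, was lower (log2 -0.26, adjusted p = 0.00373). Rragd averaged 2.14 ± 0.141 CPM with empty pLENTI6 and 11.7 ± 0.628 CPM with empty TPLKO (log2 -2.46, SE 0.090; adjusted p = 9.45e-09). Sesn3 averaged 71.3 ± 4.07 and 147 ± 1.84 CPM, and Sesn2 9.65 ± 0.505 and 17.7 ± 0.344 CPM. Flcn, Fnip1 and Fnip2 were lower with empty pLENTI6, at log2 differences of -0.55, -0.59 and -0.70; with sh3 they were at -0.65, -0.60 and -0.37 against the same empty TPLKO libraries, which both comparisons share. Flcn averaged 27.2 TPM with sh3, 29.9 TPM with OE, 29.3 TPM with empty pLENTI6 and 42.8 TPM with empty TPLKO. Rragd was at 1.16, 0.795, 0.779 and 4.57 TPM in the same order, so that for both genes the empty TPLKO group of UN-SCC679 was the high one of its 4 groups.

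Transcripts of these genes were shared out differently in the pLENTI6 experiment. Between empty pLENTI6 and empty TPLKO in UN-SCC679, more than 20% of a gene's counts lay on other transcripts for 9 of 36 genes (median 6.92%). Between the lines with empty TPLKO this was so for 3 of 34 genes (median 4.16%), and between OE and its empty vector for 0 of 36 (median 1.06%). For Eif4ebp1, the protein-coding transcript ENSMUST00000033880.6 held 46.05 ± 1.4% of counts with OE, 46.25 ± 1.22% with empty pLENTI6, 19.91 ± 0.58% with sh3 and 21.45 ± 1.01% with empty TPLKO in UN-SCC679. The Tsc1 transcript ENSMUST00000113870.2 held 58.57 ± 11.12% with sh3 and 58.87 ± 8.11% with empty TPLKO in UN-SCC679, against at most 0.12% in any pLENTI6 library. A retained-intron transcript of Rheb held 1.26 ± 1.91% with empty pLENTI6 and 19.95 ± 0.81% with empty TPLKO. Single-end as well as paired-end runs appear in the protocol, with no word on which libraries had which, and the part of this in the differences between the experiments was not tested.

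Within an experiment, more than 20% of counts lay on other transcripts between the arms of LLC for 3 of 34 genes, which were Depdc5 (25.7%), Rps6kb2 (24.1%) and Flcn (23.1%), and between sh3 and empty TPLKO in UN-SCC679 for Mlst8 (28.5%). For Flcn, the retained-intron transcript ENSMUST00000148151.7 held 27.85 ± 1.93% of the gene's counts in LLC with sh3 and 6.37 ± 0.76% with empty TPLKO (SD, n = 3), while the main coding transcript ENSMUST00000091246.10 held 56.2 ± 2.57% and 75.37 ± 1.91%. For Rps6kb2, the retained-intron transcript ENSMUST00000154307.7 held 28.18 ± 2.87% with sh3 and 6.63 ± 5.34% with empty TPLKO. The ranges of the arms did not overlap for any of these 3 transcripts. For Rptor, ENSMUST00000147781.7, a transcript labelled nonsense-mediated decay, held 63.86 ± 5.28% with empty TPLKO and 59.66 ± 3.32% with sh3 in LLC. In UN-SCC679 it held 56.54 ± 11.45% and 60.03 ± 8.31% in the same arms, 48.17 ± 6.23% with empty pLENTI6 and 49.34 ± 6.14% with OE. The coding transcript ENSMUST00000026671.12 averaged 33.68 to 48.11% over the groups, and gene values of Rptor include both. kallisto divides reads among transcripts of a gene by an estimate whose own error the files used here do not give. Shares could also spread widely within a group: the Mlst8 transcript ENSMUST00000070888.13 ranged over 0 to 44.48% among LLC libraries with sh3.

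**Figure D5:**
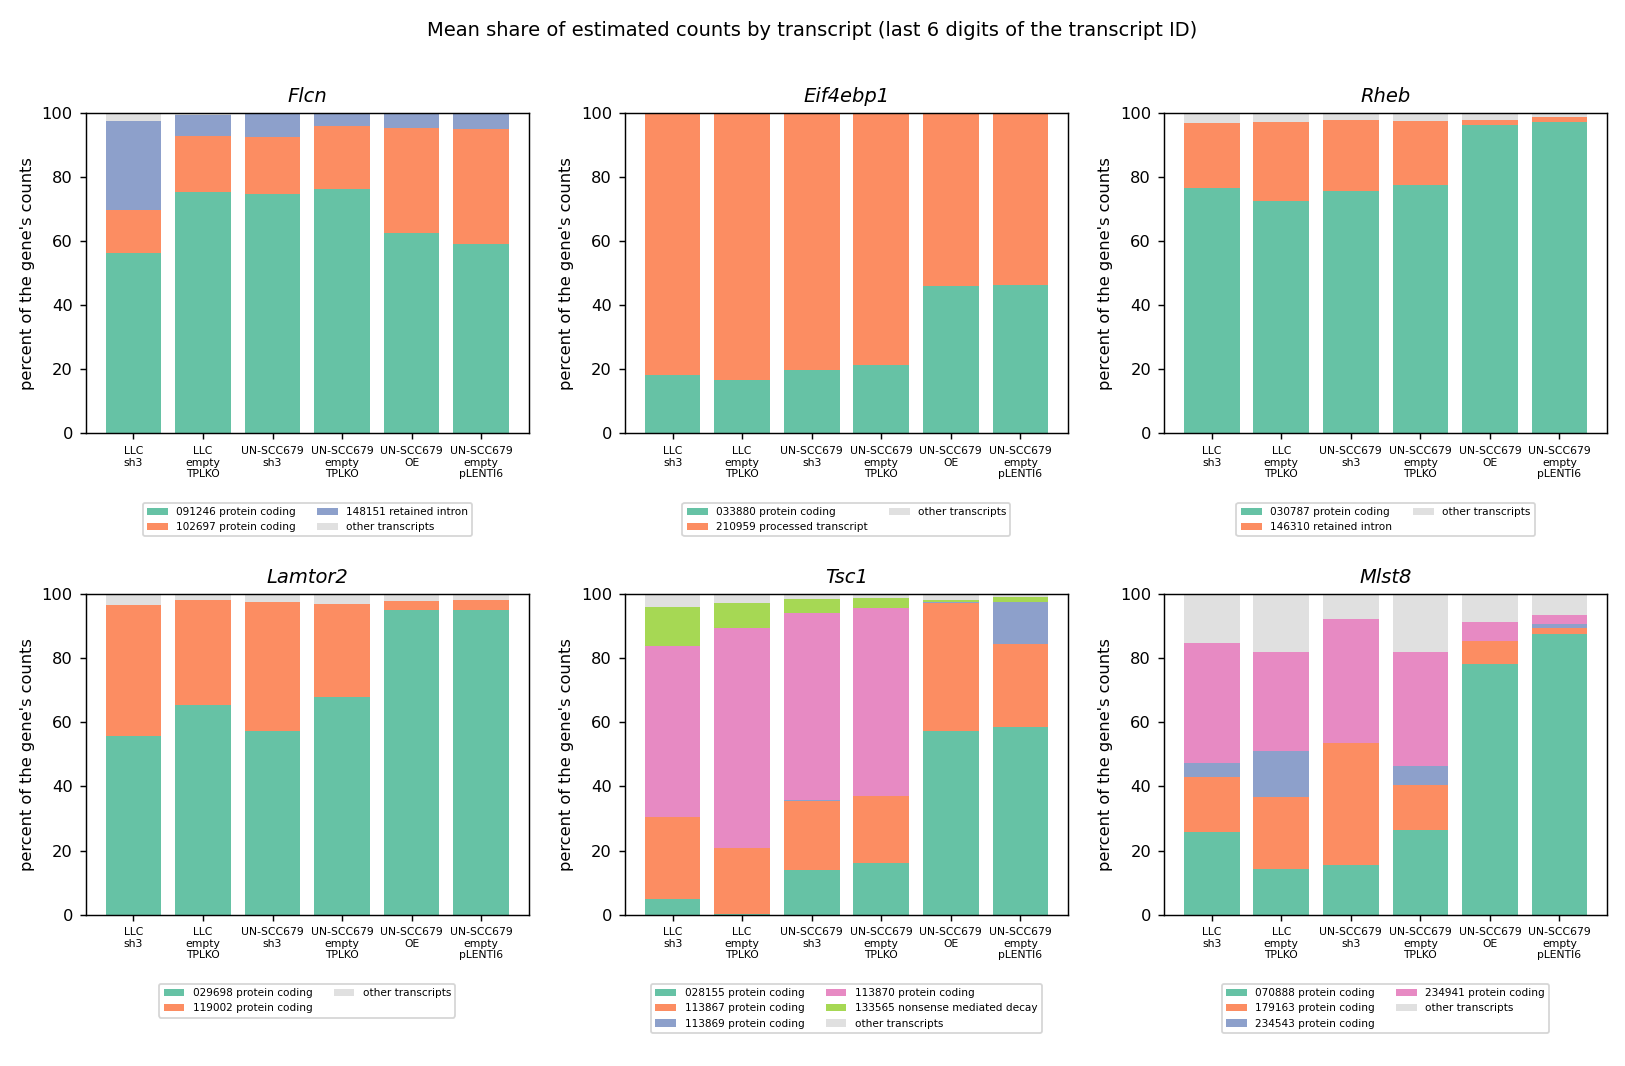
Mean share of each gene's estimated counts by transcript in the 6 groups, for 6 genes; colours name transcripts by the last digits of their IDs and their type. The retained-intron part of Flcn is large only in LLC with sh3 among these groups, and Eif4ebp1, Rheb, Lamtor2, Tsc1 and Mlst8 differ between the pLENTI6 and TPLKO experiments.

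Neighbouring pathway genes gave the following counts, where 72.6% of all genes tested were called with sh3 in LLC, 63.8% with sh3 in UN-SCC679 and 29.7% with OE. Of 20 genes upstream in the PI3K and AKT pathway, 10 rose and 10 fell with sh3 in LLC, 9 rose and 8 fell with sh3 in UN-SCC679, and 5 rose and 4 fell of 19 tested with OE. Irs2, an insulin receptor adaptor, averaged 96.3 ± 1.64 CPM with sh3 and 271 ± 5.6 CPM with empty TPLKO in UN-SCC679 (log2 -1.49, SE 0.024; adjusted p = 6.91e-13). AMPK and LKB1 genes, which restrain mTORC1 when energy is short, fell in 6 and rose in 1 of 8 tested in LLC; in UN-SCC679 2 rose and 3 fell of 9 with sh3, and 3 rose and 2 fell of 9 with OE. Of 15 tested genes for further sensors and complex assembly, 3 rose and 9 fell in LLC, 6 rose and 6 fell with sh3 in UN-SCC679, and 4 rose and 2 fell with OE.

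Downstream, 24 genes for substrates and translation were tested in each comparison. With sh3 11 rose and 7 fell in LLC and 13 rose and 8 fell in UN-SCC679, and with OE 3 rose and 2 fell. Among all genes tested, 36.2% rose and 36.4% fell in LLC, 31.8% rose and 32% fell with sh3 in UN-SCC679, and 14.6% rose and 15.2% fell with OE. Pdcd4, a translation inhibitor that S6K1 marks for destruction, was higher in both knockdowns, at 56.1 ± 1.87 CPM with sh3 and 15.6 ± 0.127 CPM with empty TPLKO in LLC, and at 46.9 ± 0.71 and 12.2 ± 0.515 CPM in UN-SCC679 (log2 1.85 and 1.95). Ndrg1, which SGK1 phosphorylates downstream of mTORC2, rose in LLC (407 ± 1.49 CPM with sh3 and 227 ± 2.69 CPM with empty TPLKO) and fell with OE (12.6 ± 0.625 and 18 ± 0.259 CPM with empty pLENTI6). Of 15 genes that control Ddit4 and the sestrins or are induced with them, 5 rose and 7 fell in LLC, 6 rose and 7 fell with sh3 in UN-SCC679, and 2 rose and 3 fell with OE. Trib3 and Asns, targets of ATF4, were among the 7 that fell with sh3 in UN-SCC679 (log2 -0.74, SE 0.027, and -0.49, SE 0.020). The part of any of these factors in the changes of Ddit4 and the sestrins was not tested.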

How the data were processed

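Poly(A) RNA from 18 cell line libraries had been read over 75 bases with a stranded kit, per the labels' protocols, which name single-end and paired-end runs without saying which libraries had which. The deposited values are kallisto's estimated counts per transcript with effective lengths, on mm10, and kallisto and sleuth are named in the submitters' processing notes; versions and the strand setting are not given in the sources used here. Of 118489 transcripts, 116816 were assigned to genes with GENCODE M21 and 1673 were not; these held 0.515 to 0.593% of counts.

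The estimated counts of a gene's transcripts were added up and rounded to whole numbers. Genes passing a minimum of 10 counts (15 in total) were compared with edgeR 4.0.16 (quasi-likelihood test, TMM scaling, Benjamini-Hochberg adjustment over all genes tested, call at 0.05; the SE was derived from the F statistic). Each comparison was fitted on its own groups, and differences between effects as interactions. TPM was computed from the deposited counts and effective lengths. The test was run on counts simulated from the LLC means, with few genes changed and the same spread set for all genes. That setting does not cover data in which most genes pass, so it does not check the scaling there. Alternatives were library size scaling, RLE, DESeq2 1.42.0, limma 3.58.1 on log2(TPM + 1), no filter, a filter of 1 CPM in 3 libraries, a replicate block, an effective length offset, removal of chromosome medians and leaving out each library.

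The genes and lists were chosen with earlier results of these data known. Values per library are given for the 8 called genes with the largest change in each comparison (mean log2 CPM at least 1) and for Mtor, Rptor and Rictor; genes outside the 40 were taken from the 2 called genes with the smallest adjusted p of each list. The labels do not tell whether the 3 libraries of a group came from different cultures; p-values therefore reflect only the spread among libraries, which may be technical. Protein sequences were not used here.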

Additional observations from a re-analysis of the deposited data

Results flagged for a closer look

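For 31 of the 40 genes the change with sh3 differed between LLC and UN-SCC679 in edgeR's interaction test, against 59.9% of all genes; values are the log2 change in LLC minus that in UN-SCC679. Among genes of the kinase complexes, the difference was 0.167 for Rptor, 0.280 for Akt1s1, -0.436 for Mapkap1, -1.262 for Mlst8 and -1.504 for Deptor. It was 0.362 for Rheb, 0.261 for Tsc1 and -0.557 for Tsc2. The Rag genes were at -0.490 for Rraga, 0.436 for Rragc and 4.593 for Rragd. That of Rragb, -3.598, rests on a gene with 0, 1 and 0 counts in UN-SCC679 with empty TPLKO and carries an SE of 1.06.

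Of Ragulator, Lamtor1 differed by -0.289. GATOR1 genes differed by -0.339 for Nprl2, -0.766 for Nprl3 and -0.493 for Depdc5. In GATOR2 the values were -0.472 for Mios, -0.638 for Seh1l, 0.194 for Sec13, -0.459 for Wdr24 and 0.519 for Wdr59. The folliculin genes were at 0.754 for Flcn, 1.103 for Fnip1 and 0.662 for Fnip2.

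Sensors differed by -0.429 for Sesn1, -0.857 for Sesn2 and -1.099 for Ddit4. Substrate genes differed by 0.842 for Eif4ebp1, -0.247 for Eif4ebp2, -0.566 for Rps6kb1 and -0.511 for Rps6kb2. The call of Akt1s1 was lost without LLC empty TPLKO replicate 2 (adjusted p = 0.0627), LLC sh3 replicate 3 (0.0743) or UN-SCC679 sh3 replicate 3 (0.0535), and that of Nprl2 without either line's empty TPLKO replicate 1. With chromosome medians removed, Akt1s1 (adjusted p = 0.0732) and Sec13 (0.0581) were not called, and with limma on log2(TPM + 1) Rptor (0.0615) and Rragb (0.975) were not. The chromosome medians of this difference were -0.303 for chromosome 17 (Mlst8, Tsc2, Wdr24), -0.285 for chromosome 19 (Rps6kb2) and 0.199 for chromosome 8 (Eif4ebp1, Wdr59); their part in these values was not tested beyond the removal of chromosome medians.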

How the results depend on the processing

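Of the alternative values of the results recomputed, 841 kept their direction and their side of the threshold or stayed within their limits, 31 lost a call or fell below their limits, 4 gained a call, 9 moved and 3 reversed; causes were not tested. The reversed ones, among genes given with values per library, were Mtor in LLC (log2 0.099 with limma and 0.120 with effective lengths) and Rptor in LLC (0.000 with chromosome medians removed). Over the 40 genes and 7 comparisons, 25 called values turned sign under an alternative, besides that of Rptor in LLC at 0.000. Of these 25, 6 were still called. With chromosome medians removed they were Tsc2 with sh3 in UN-SCC679 (-0.093), Mapkap1 (-0.164) and Lamtor5 (0.446) between the lines and Rps6kb2 between the empty vectors (-0.162). The others were those of Rheb between the empty vectors (-0.212 with limma and -0.261 with effective lengths). Genes called higher numbered 6 in LLC with limma, 5 for OE with DESeq2 and 7 for empty pLENTI6 over empty TPLKO with effective lengths. In alternatives added after seeing the data, 7 genes were called in opposite directions in the lines with limma and with effective lengths, and 9 in the same direction with limma; sh3 and OE in UN-SCC679 had 3 in the same direction with DESeq2 and with limma. Without single libraries the lines had 11 to 13 opposite and 14 to 15 alike, and sh3 and OE 3 to 8 opposite and 2 to 5 alike. The median change in LLC was -0.110 with library size scaling. That in UN-SCC679 with sh3 was 0.023 with library size scaling, -0.064 with limma, -0.062 with effective lengths and -0.093 with chromosome medians removed. For OE it was 0.075 with limma and 0.047 with effective lengths. Leaving out single libraries gave 4 to 11 genes higher and 2 to 4 lower for OE, with 5 without OE replicate 2 and 4 without OE replicate 3, and medians of -0.190 (without sh3 replicate 3) to -0.129 in LLC and -0.072 (without sh3 replicate 1) to -0.024 in UN-SCC679.

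Whether the replicate numbers pair the samples is not known. Same-numbered libraries had correlations of deviations of 0.054 to 0.115 in LLC, where the other pairs of libraries had -0.08 to -0.005. In UN-SCC679 with TPLKO the values were -0.015 to 0.072 for the same number and -0.105 to 0.087 for others. With pLENTI6 they were -0.134 to -0.039 and -0.053 to 0.165. With a replicate block, 10 genes were called higher and 22 lower in LLC, 13 and 19 with sh3 in UN-SCC679, and 6 and 4 with OE; the interactions gave 12 and 19 between lines and 10 and 15 between sh3 and OE. Rragb in UN-SCC679 and Sesn3 in LLC had too few counts to be tested between the arms of that line.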
